A study of Mus musculus with 6 samples.

Results

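The genes described here are 10 members of the RGS family: Rgs1, Rgs2, Rgs8, Rgs10, Rgs13, Rgs14, Rgs16, Rgs18, Rgs19 and Rgs20. They were given as a list, and the probe set of each was chosen by its mean log2 value over the 6 arrays, as the highest among those annotated with a single gene symbol. A probe set was named for 9 of the 10 genes, each with a single probe set, out of 19938 genes tested. Rgs10 was not analysed here. The list itself was selected on knowledge of earlier log2 fold changes between these groups, so the members' values are given as a description and no test is read from them.

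RGS proteins (regulators of G protein signalling) accelerate the hydrolysis of GTP by G protein alpha subunits and so shorten the signal of receptors such as those for chemokines. In B lymphocytes they are known for limiting migration toward chemokines. The family is divided by sequence into subfamilies: R4, which holds small proteins made of little more than the RGS domain (Rgs1, Rgs2, Rgs8, Rgs13, Rgs16 and Rgs18 among those described); RZ (Rgs19 and Rgs20); R12 (Rgs10 and Rgs14); and R7, which holds none of the genes on the list.

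Expression was measured on Affymetrix arrays in mouse pre-B leukaemia cells of strain C57Bl/6, transformed by the BCR-ABL1 fusion kinase and of genotype Bcor fl/Y, a floxed Bcor allele on the single X chromosome. Cells of 3 arrays had been transduced with PMIP-CRE-ERT2, a vector for a Cre recombinase that tamoxifen activates (group Cre-ERT2), and cells of 3 arrays with PMIP-ERT2, which lacks Cre (group ERT2). Both groups shared the Bcor fl/Y genotype, puromycin selection and 4OH-Tamoxifen at 0.5 micromolar for 2 days. The comparison addresses the role of Bcor, a corepressor that binds BCL6 and belongs to the polycomb complex PRC1.1, in gene expression of these cells. The labels do not say whether the arrays of a group came from separate cultures or from 1 transduced culture, so the spread behind each p-value is that between arrays and may be technical only. With the vector as the only stated difference the effect of losing Bcor and any effect of active Cre cannot be told apart.

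The targeted gene was lower in every Cre-ERT2 array. Bcor had log2 values of 10.07, 10.11 and 10.17 with ERT2 and 9.08, 9.22 and 9.18 with Cre-ERT2, which is a difference of -0.96 (SE 0.0491, adjusted p = 2.11e-05 by limma). The part of the gene that its probe set reads relative to the floxed part is not given in the sources used here. The array medians lay between 8.61 and 8.68 on the log2 scale. The B lineage list of 9 measured markers had mean log2 levels of 12.38 to 12.42 with ERT2 and 12.41 to 12.42 with Cre-ERT2. In that list Cd22, an inhibitory coreceptor, rose by 0.27 and the recombinase gene Rag1 fell by 0.38 (limma adjusted p = 0.00707 and 0.000958).

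Promoter sequence is shown first, since CpG content is a feature of these genes that the choice of members did not use, and PRC1.1 is known to bind CpG-rich promoters through its KDM2B subunit. RefSeq windows of build GRCm38.p6, from 250 bases before to 50 bases after an annotated start, were matched by symbol for 5 of the 9 measured members, with 9 windows in all: Rgs2, Rgs8, Rgs13, Rgs16 and Rgs19. Rgs1, Rgs14, Rgs18 and Rgs20 had no entry. The windows below belong to genes of the Rgs2 to Rgs18 cluster and to Rgs8 and Rgs16, which are next to each other elsewhere on chromosome 1. They are written 5′ to 3′ on the gene's strand and have each CG dinucleotide in capitals.
Rgs2 (chr1:144004100-144004399, minus strand): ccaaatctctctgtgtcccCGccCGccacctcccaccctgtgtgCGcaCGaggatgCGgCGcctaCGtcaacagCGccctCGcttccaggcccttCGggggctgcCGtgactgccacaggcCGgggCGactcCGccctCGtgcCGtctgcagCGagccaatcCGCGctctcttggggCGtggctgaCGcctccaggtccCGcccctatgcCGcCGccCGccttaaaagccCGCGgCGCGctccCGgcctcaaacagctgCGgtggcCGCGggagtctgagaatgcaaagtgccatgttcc
Rgs13 (chr1:144177323-144177622, minus strand): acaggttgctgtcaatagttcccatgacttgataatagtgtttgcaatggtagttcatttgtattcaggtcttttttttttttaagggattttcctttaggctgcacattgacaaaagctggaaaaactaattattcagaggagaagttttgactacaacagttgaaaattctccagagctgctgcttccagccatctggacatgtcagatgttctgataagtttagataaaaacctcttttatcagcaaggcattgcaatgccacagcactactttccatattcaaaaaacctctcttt
Rgs8 (chr1:153665024-153665323, plus strand): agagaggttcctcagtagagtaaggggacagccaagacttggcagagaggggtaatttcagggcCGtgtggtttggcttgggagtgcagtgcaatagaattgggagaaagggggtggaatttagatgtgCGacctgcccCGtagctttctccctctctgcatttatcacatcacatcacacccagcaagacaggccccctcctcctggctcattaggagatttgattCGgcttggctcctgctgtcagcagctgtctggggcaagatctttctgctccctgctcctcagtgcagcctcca
Rgs16 (chr1:153740103-153740402, plus strand): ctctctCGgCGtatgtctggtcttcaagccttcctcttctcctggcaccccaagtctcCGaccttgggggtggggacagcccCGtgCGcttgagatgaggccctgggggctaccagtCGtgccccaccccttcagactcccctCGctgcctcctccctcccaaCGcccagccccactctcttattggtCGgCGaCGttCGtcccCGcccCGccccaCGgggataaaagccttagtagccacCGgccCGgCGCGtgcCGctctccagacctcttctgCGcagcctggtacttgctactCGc

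The Rgs2 window held 33 CG dinucleotides and the Rgs16 window 22, against a median of 7 over all 32851 windows of the table. The Rgs13 window held 0. Rgs8 has 3 annotated starts, with 12, 4 and 6 CG dinucleotides in chromosome order, and the window printed is the middle one. The 3 Rgs19 windows held 4, 37 and 27, so 22 or more were found in a window of Rgs2, Rgs16 and Rgs19, at most 12 in those of Rgs8 and 0 in that of Rgs13. With 5 genes this is a description of these windows only.

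Motifs were searched in the same 9 windows, with all 4 being palindromes that read the same on both strands and none containing another. TTCNNNGAA, the core shared by BCL6 and STAT sites, was in 0 of the 9 windows and in 8.3% of all windows. CAGCTG, an E-box bound by E proteins, was in 3 windows and in 16.3% of all: in the Rgs2 window at position 254 counted from its 5′ end, in the printed Rgs8 window at position 249 and in the Rgs8 window chr1:153665423-153665722 at position 17. The AP-1 motif TGANTCA (7.81% of all windows) and the cAMP response element TGACGTCA (1.79%) were in none of the 9. With 9 windows from 5 genes, those of Rgs19 partly overlapping, nothing is read from these counts.

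Among the members of the R4 subfamily, the most strongly differing gene was Rgs18, which encodes a regulator known from platelets and other blood cells. Its log2 values were 10.80, 10.63 and 10.81 with ERT2 and 8.38, 8.26 and 8.12 with Cre-ERT2. The groups were far apart, with 2.25 log2 units between the lowest ERT2 and the highest Cre-ERT2 array. The log2 fold change was -2.49 (SE 0.0734), or 17.8% of the ERT2 signal on the linear scale. The Cre-ERT2 values lay below the median of each array, and signal over background is unknown there. The 17.8% is therefore a ratio of probe signals and not a measure of the RNA that remained.

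Rgs1, known as a brake on chemokine-driven migration of B cells, was also lower in every Cre-ERT2 array. It had log2 values of 9.92, 9.79 and 9.997 with ERT2 and 8.94, 8.86 and 8.80 with Cre-ERT2. The gap between the groups was 0.85, and the log2 fold change was -1.03 (SE 0.0607), or 48.8% of the ERT2 level.

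Rgs8, best known from the brain, where it acts on Gi and Gq signalling, differed in the same direction. Its values were 11.13, 10.98 and 11.11 with ERT2 and 10.61, 10.53 and 10.61 with Cre-ERT2, without overlap. The log2 fold change was -0.49 (SE 0.0512), 71.2% of the ERT2 level.

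The other R4 members differed by far less. Rgs2, which acts mainly on Gq, had log2 values of 10.76, 10.71 and 10.89 with ERT2 and 10.67, 10.70 and 10.56 with Cre-ERT2. These groups did not overlap, but only by 0.0164 log2 units, and the log2 fold change was -0.14 (SE 0.0576). Rgs16, an inducible regulator of Gi and Gq signalling, had 9.24, 9.23 and 9.25 with ERT2 and 9.10, 9.14 and 9.15 with Cre-ERT2. Its groups were apart by 0.0720 with a log2 fold change of -0.11 (SE 0.0369), small in size but with little spread within the groups (SD 0.00974 and 0.0305, n = 3 each).

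Rgs13, a regulator known from germinal centre B cells and mast cells, had log2 values of 5.91, 5.57 and 5.82 with ERT2 and 5.60, 5.47 and 5.70 with Cre-ERT2. Its groups overlapped, and its SD within the groups was 0.176 and 0.120, against a log2 fold change of -0.17 (SE 0.0909). It was the 1 member among the dimmest 30% of genes. With these left out 8 of the 9 measured members remained.

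The RZ and R12 members did not share this direction. Rgs20, an RZ protein that acts on Gz and Gi, had log2 values of 7.94, 7.95 and 7.94 with ERT2 and 8.24, 8.14 and 8.12 with Cre-ERT2. It was higher in every Cre-ERT2 array, with a log2 fold change of 0.23 (SE 0.0426). All its values lay below the median of their array, and signal over background is unknown there. Rgs19, also known as GAIP and a regulator of Gi, had 11.65, 11.58 and 11.74 with ERT2 against 11.70, 11.67 and 11.66. Its groups overlapped and its log2 fold change was 0.02 (SE 0.0483), which turned to -0.02 without ERT2 replicate 2. Rgs14, an R12 scaffold that also binds RAP and RAF proteins, had 9.36, 9.34 and 9.42 with ERT2 against 9.48, 9.38 and 9.47, an overlapping pattern with a log2 fold change of 0.07 (SE 0.0451).

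**Figure D1:**
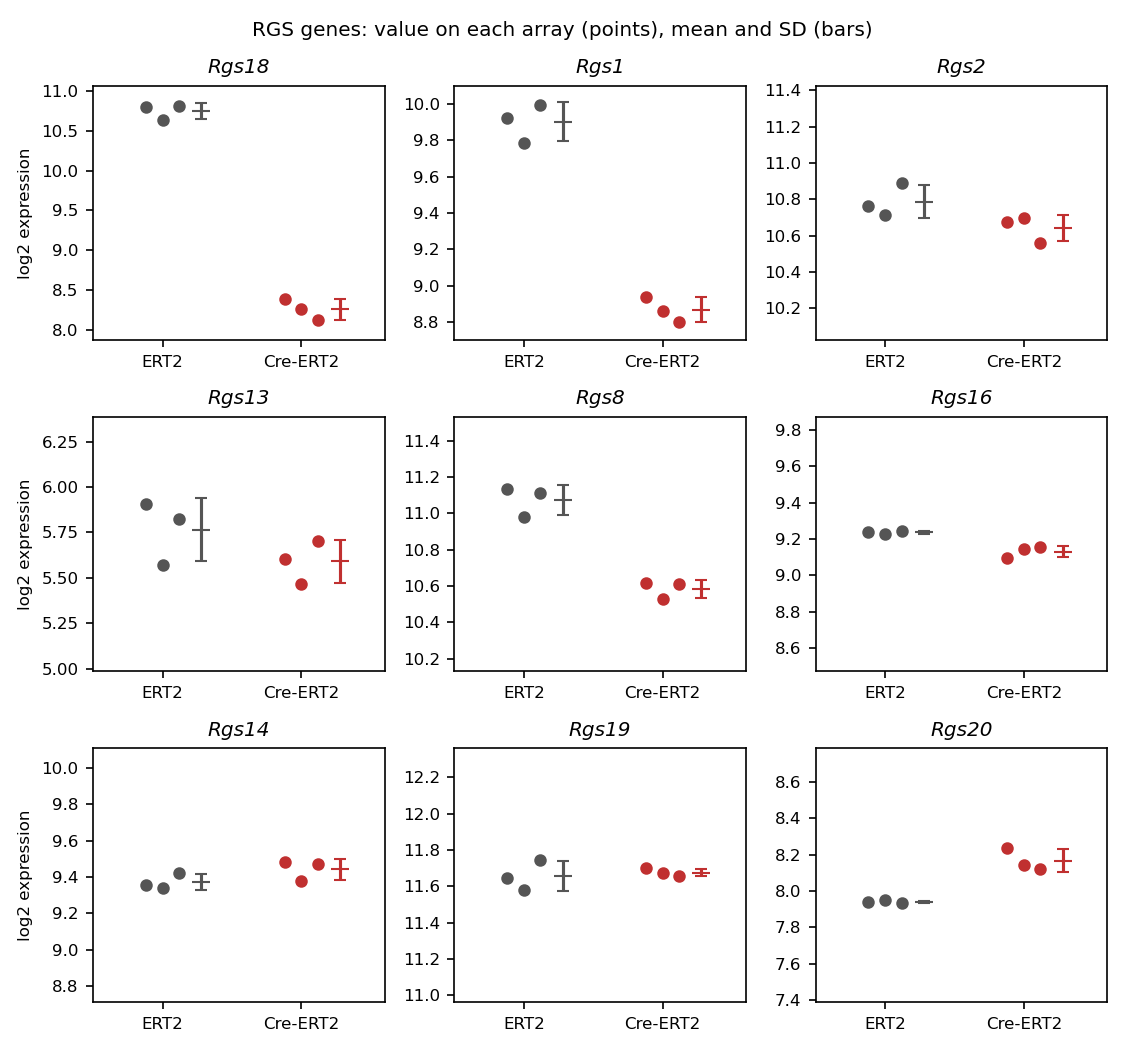
Log2 expression (vertical axis) of the 9 measured RGS genes on each of the 3 ERT2 (grey) and 3 Cre-ERT2 (red) arrays, with bars for the mean and SD; the vertical range is the same in all panels except that of Rgs18, which is wider. The groups lie clearly apart for Rgs18, Rgs1 and Rgs8, are close to each other for Rgs2 and Rgs16, and overlap for Rgs13, Rgs14 and Rgs19, while Rgs20 is higher in the Cre-ERT2 arrays.

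Of the 9 measured members 4 passed limma's threshold of an adjusted p under 0.05 over all genes, 3 lower (Rgs18, Rgs1 and Rgs8) and 1 higher (Rgs20). The share of all 19938 genes that passed was 7.03%, made up of 4.05% higher and 2.98% lower. The arrays of the groups lay apart for 6 of the 9 members, 5 lower and 1 higher, against 29.9% of all genes (20.3% lower and 9.56% higher). Because the list was drawn up with this comparison known, nothing is read from these counts. The call of Rgs20 ended without ERT2 replicate 1 or 3 and without Cre-ERT2 replicate 1 or 2, with log2 fold changes of 0.19 to 0.24, whereas those of Rgs18, Rgs1 and Rgs8 were kept with each array left out.

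Single arrays stood out in the members' values. ERT2 replicate 2 was the lowest ERT2 array for 8 of the 9 members, all but Rgs20, and the same array was the lowest for 43.1% of all genes. Leaving it out moved the log2 fold change of Rgs18 to -2.55 and that of Rgs1 to -1.09. In the Cre-ERT2 group replicate 3 was lowest for 5 members, replicate 2 for 3 and replicate 1 for 1, against 27.5%, 36.5% and 36% of all genes.

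The remaining genes of the family were left off the list with the same results known, so their values are a description too. The R4 genes outside the list are Rgs3, Rgs4, Rgs5 and Rgs21. Their log2 fold changes lay between -0.09 (Rgs4) and -0.01 (Rgs5), and 0 of the 4 passed the threshold. All 10 measured R4 genes therefore had a lower mean with Cre-ERT2, but 68.2% of all genes did. Under 6 of the alternatives 9 of the 10 were lower: Rgs5 turned positive with cyclic loess between arrays (where 56.1% of all genes were lower), without ERT2 replicate 1 and without Cre-ERT2 replicate 2, and Rgs3 with array weights, without ERT2 replicate 3 and without Cre-ERT2 replicate 3. The R7 genes Rgs6, Rgs7, Rgs9 and Rgs11, which pair with the G beta 5 subunit, lay between -0.06 and 0.01. Rgs12 (R12) was at -0.01 and Rgs17 (RZ) at 0.06.

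Over all 11 measured genes named Rgs outside the list, Rgs22 included, limma called 0, and 0 had an unadjusted p under 0.05, against 7.03% and 23% of all genes. Groups overlapped for all 11, where 29.9% of all genes had groups apart. Nothing is read from these counts either.

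**Figure D2:**
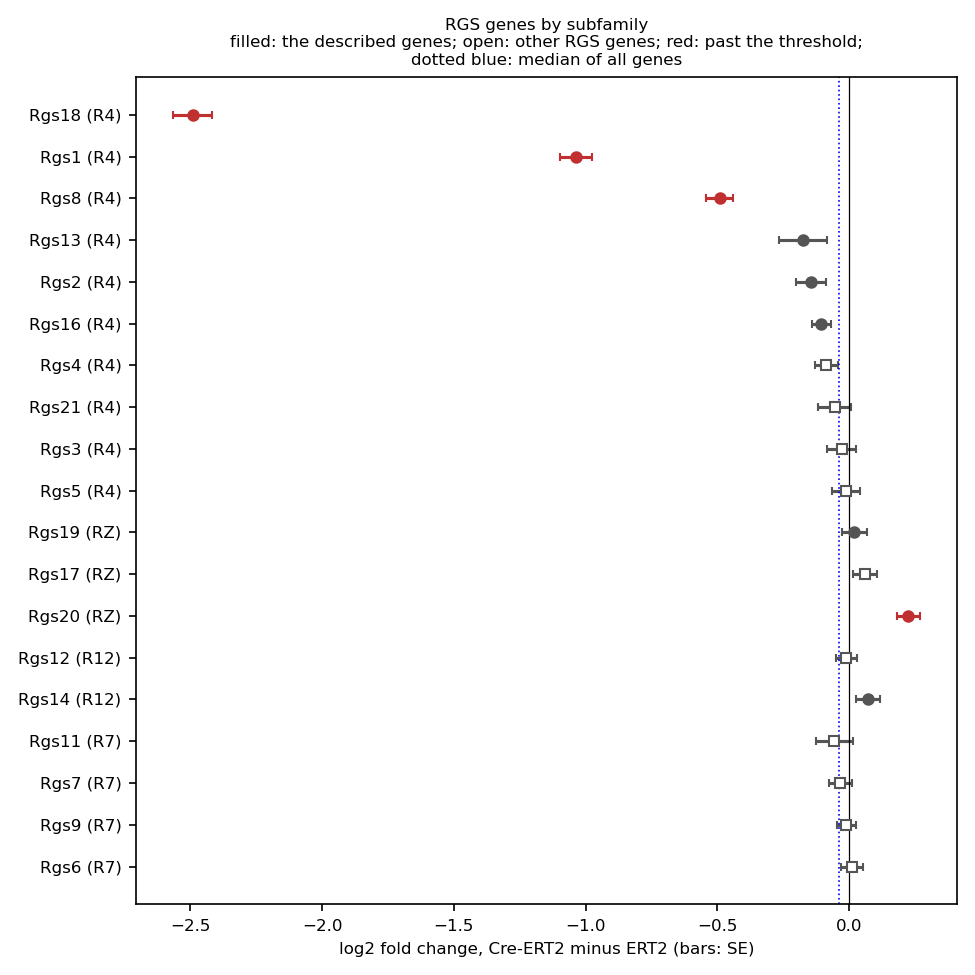
Log2 fold change of Cre-ERT2 against ERT2 (horizontal axis, with the SE as bars) for the genes of the R4, RZ, R12 and R7 subfamilies; filled circles are the genes described, open squares the other RGS genes, red marks an adjusted p under 0.05 and the dotted line is the median of all genes (-0.04). Rgs18 at -2.49, Rgs1 at -1.03 and Rgs8 at -0.49 stand apart from the other R4 genes, which lie between -0.17 and -0.01.

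More distant relatives carry an RGS-like domain within larger proteins: the GPCR kinases, RhoGEFs, axins, sorting nexins and Akap10. Of 25 measured RGS-domain genes outside the list (the 11 above included), 2 rose, 0 fell and 23 did not pass, which is 8% called against 7.03% of all genes. The median log2 fold change was -0.02, against -0.04 for all genes. Arhgef12, a RhoGEF that links G12 and G13 to RhoA, rose from 8.98, 8.94 and 8.94 to 9.19, 9.21 and 9.27. The rise was 0.27 (SE 0.0393, adjusted p = 0.00440 by limma).

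The receptor kinase gene Grk4 had log2 values of 6.94, 7.02 and 6.82 with ERT2 and 7.20, 7.22 and 7.16 with Cre-ERT2. It rose by 0.27 (SE 0.0537, limma adjusted p = 0.0195), and this call ended without ERT2 replicate 1 or Cre-ERT2 replicate 1 or 2 (adjusted p up to 0.0847). Grk2 was not analysed here.

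The positions of the members were a further feature that the list did not use. By the GRCm38.p6 gene order, 7 of the 9 measured members lie on chromosome 1, with Rgs14 on chromosome 13 and Rgs19 on chromosome 2. Among tested genes, Rgs2, Rgs13, Rgs1, Rgs21 and Rgs18 follow each other without another gene between them, and Rgs8 and Rgs16 are next to each other elsewhere on the chromosome.

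The genes beside and between these members did not pass the threshold. Between Rgs1 (-1.03) and Rgs18 (-2.49) lies Rgs21, linked to taste cells, with a mean log2 value of 5.40 ± 0.122 with ERT2 and 5.34 ± 0.0485 with Cre-ERT2 (SD, n = 3 each). The difference was -0.06 (SE 0.0622, adjusted p = 0.629 by limma). Rgs21 is among the dimmest 30% of genes and its signal over background is unknown, so its value does not show that its RNA was unchanged. On the other side of Rgs18, Brinp3, also among the dimmest 30%, was at -0.06 (SE 0.0636, adjusted p = 0.601). On the other side of Rgs2, Uchl5, a deubiquitinase of the proteasome, was at -0.12 (SE 0.0404, adjusted p = 0.133). Rgs21, Brinp3 and Uchl5 were chosen for their place after their values were seen.

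The same held around the other members. Of the 31 genes outside the list that were among the 3 nearest such tested genes on either side of a member, limma called 0, against 7.03% of all genes. An unadjusted p under 0.05 was found for 7 of the 31, a share near the 23% of all genes. With array weights 2 were called, where 3339 of all 19938 genes were. Without Cre-ERT2 replicate 3 the count was 1, where 1341 of all genes were called. Their log2 fold changes lay between -0.19 and 0.09, with a median of -0.05. Members beside another member could not count as neighbours, so these counts depend on the choice of the list. The neighbours of smallest p were Myt1 (-0.13, SE 0.0444, adjusted p = 0.123 by limma) and Lkaaear1 (-0.16, SE 0.0546, adjusted p = 0.125 by limma). Both lie on the same side of Rgs19, Lkaaear1 at 1 step and Myt1 at 3 steps in the gene order.

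**Figure D3:**
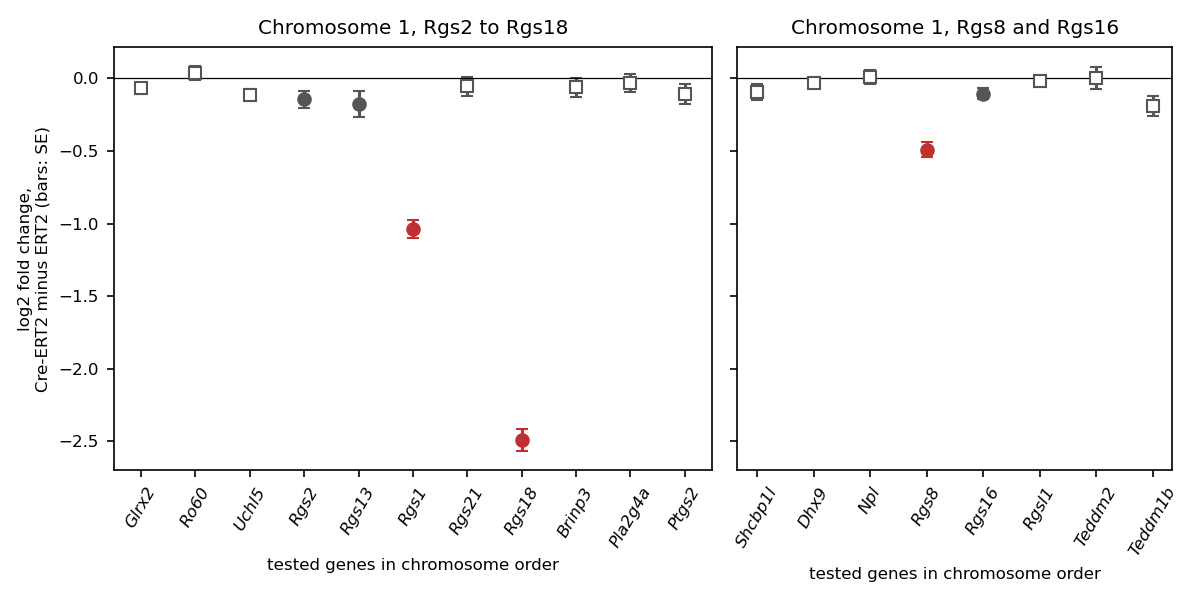
Log2 fold change of Cre-ERT2 against ERT2 (vertical axis, SE as bars) for tested genes in the order of chromosome 1 around the Rgs2 to Rgs18 cluster (left) and around Rgs8 and Rgs16 (right); the horizontal axis gives order and not distance, circles are the RGS genes described, open squares other genes, and red marks an adjusted p under 0.05. Rgs1, Rgs18 and Rgs8 lie at -0.49 or below, and the genes beside them lie between -0.19 and 0.04.

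The genes whose 6-array profiles were most like those of the leading members were sought by Euclidean distance between log2 profiles centred on each gene's mean. For Rgs1 they were Ifi208, of the interferon-inducible p200 family (distance 0.169), the tight junction gene Cldn1 (0.176) and Fcrl6, of the Fc receptor-like family (0.180). For Rgs18 the nearest were Ifi208 (1.69), Cldn1 (1.77) and Rgs1 itself (1.79). The distances from Rgs18, which had the lowest log2 fold change of all genes tested, were larger: Ifi208 was at -1.12 (SE 0.0916) and Cldn1 at -1.05 (SE 0.0493). This likeness rests mostly on the difference between the groups.

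RGS proteins act on G protein alpha subunits, which were measured on the same arrays. Of 32 measured G protein subunits 1 rose, 0 fell and 31 did not pass, or 3.12% called against 7.03% of all genes. The gene that rose was Gna15, a Gq-class subunit restricted to blood cells, with log2 values of 10.90, 10.88 and 10.94 with ERT2 and 11.34, 11.44 and 11.37 with Cre-ERT2. It rose by 0.48 (SE 0.0419, adjusted p = 0.000278 by limma). The list's median was -0.02, and Gnas was not analysed here.

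Upstream of the G proteins, of 36 measured G protein coupled receptors of lymphoid and other blood cells, 9 rose, 2 fell and 25 did not pass, or 30.6% called against 7.03% of all genes (4.05% higher and 2.98% lower). The median log2 fold change was 0.03, against -0.04 for all genes. Ffar2, the receptor for short-chain fatty acids, was at 1.22, the homing receptors Cxcr5 and Ccr7 at 1.02 and 0.69, and the lysophospholipid receptor P2ry10 at -0.72 (limma adjusted p from 2.51e-06 to 0.000322). Leaving out ERT2 replicate 3, or either of Cre-ERT2 replicates 1 and 2, lowered the count of called receptors to 7. Cxcr4, the receptor for CXCL12 in pre-B cells, was at 0.04 (SE 0.0389, adjusted p = 0.615); it was picked with its values in view. Earlier results had shown several of these receptors to differ, so the list is not independent evidence.

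Downstream, 37 effectors and modulators of G protein signalling were measured, of which 6 rose, 4 fell and 27 did not pass (27.0% called against 7.03% of all genes, with a median of -0.04 in both). This list too was chosen with earlier results of these data known, so its count is not independent evidence. The adenylyl cyclase gene Adcy6, whose product makes cAMP, rose by 0.64 (SE 0.0533), Prkar2a, a regulatory subunit of the cAMP-dependent kinase, by 0.39 (SE 0.0626), and Plcb2, a phospholipase C activated by Gq and by G beta gamma, by 0.33 (SE 0.0440). Pik3cg, the PI3 kinase catalytic subunit that G beta gamma activates, fell by 0.51 (SE 0.0400). Adjusted p for these 4 genes by limma lay between 0.000172 (Pik3cg) and 0.00668 (Prkar2a).

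**Figure D4:**
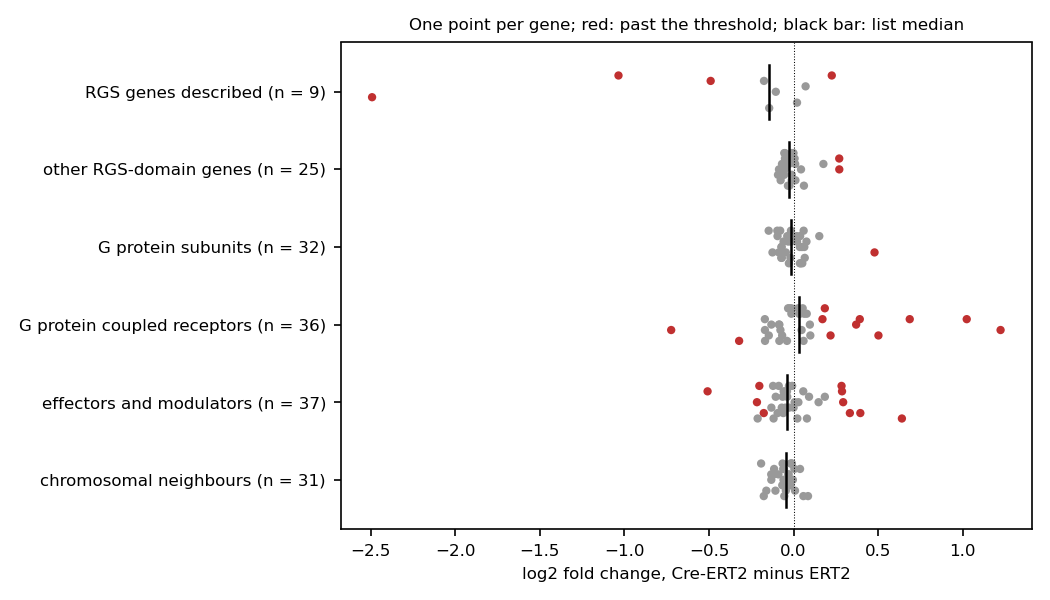
Log2 fold change of Cre-ERT2 against ERT2 (horizontal axis) for every measured gene of each list, with red for an adjusted p under 0.05 and a black bar for the list's median; the vertical scatter within a list has no meaning. Rgs18 at -2.49 has the lowest log2 fold change of all genes tested, so it lies below every gene of the other 5 lists. The receptors and effectors hold 11 and 10 of the called genes.

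Rgs18 and Rgs1 are also expressed by other blood cells, so markers of such cells were set beside them. Of 12 megakaryocyte and platelet markers 8 were measured and 0 were called by limma, with 2 at an unadjusted p under 0.05, against 7.03% called and 23% at an unadjusted p under 0.05 among all genes. Their mean log2 level lay between 8.04 and 8.10 with ERT2 and between 7.997 and 8.03 with Cre-ERT2. The largest differences were in the chemokine gene Ppbp (-0.13, adjusted p = 0.164) and the platelet glycoprotein gene Gp5 (-0.12, adjusted p = 0.112).

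Of 12 myeloid markers 2 rose, 0 fell and 10 did not pass, where 4.05% of all genes rose and 2.98% fell, with mean levels of 7.95 to 8.002 with ERT2 and 7.99 to 8.02 with Cre-ERT2. These were the lysozyme gene Lyz2 (0.45, limma adjusted p = 0.00488) and the Fc receptor gene Fcgr1 (0.35, limma adjusted p = 0.0294). Of 10 measured T and NK cell markers 1 fell, Ncr1 by 0.23 (limma adjusted p = 0.0127), Cd4 was at -0.16 (adjusted p = 0.0684), and the mean level was 7.84 to 7.94 with ERT2 and 7.82 to 7.85 with Cre-ERT2. The values hold no detection calls, so no marker could be called absent, and in bulk RNA fewer cells of a type and less RNA per cell cannot be told apart.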

How the data were processed

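Each probe set has a log2 expression value as deposited by the authors. The submitters' processing notes list RMA and Partek 6.5 without their role or order; the background setting, genome build, scan dates and slides are not given in the sources used here. Of 35556 probe sets, 21789 had 1 gene symbol in the platform annotation, 1621 had several and 12146 had none. Gene identifiers of 21698 matched GRCm38.p6, used for names and gene order only. For a gene with several single-symbol probe sets, that of highest mean was used.

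Cre-ERT2 was compared with ERT2 over all 6 arrays by linear models in R 4.3.3 with limma 3.58.1 (moderated by eBayes, no trend), using Benjamini-Hochberg adjustment over 19938 genes and a threshold of 0.05. SE is the moderated standard error. The number of arrays limits precision: the median SE was 0.0477. The members and lists were chosen with earlier results of these data known. Named genes were Bcor, the members, up to 4 called genes of largest change per list (or the 2 of smallest p), the 3 nearest profiles to Rgs18 and to Rgs1, and the 2 largest changes per marker list. On simulated data of the same 19938 genes, 50 were changed at each of the log2 sizes 0.25, 0.5, 1 and 2. The pipeline recovered 68% of genes changed by 0.25 and 100% of those changed by 0.5, and 5.64% of its calls were false. The real data held more called genes, 1402, so these shares need not hold for the real calls. Other software was the R package data.table (version 1.17.8), Python 3.11.15, pandas 2.3.3 and, for plots, matplotlib 3.10.9.

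Alternatives tried were a replicate block, an intensity trend, array weights, quantile normalization, cyclic loess, median centring, the dimmest 30% of genes left out, probe sets averaged per gene, an adjusted p of 0.1, and each array left out in turn.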

Additional observations from a re-analysis of the deposited data

How the results depend on the processing

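The log2 fold changes of Rgs18 (-2.56 to -2.42), Rgs1 (-1.09 to -0.99) and Rgs8 (-0.54 to -0.46) kept their direction and call under all 14 alternatives that refit the model (an adjusted p of 0.1 changes only the threshold). Rgs20 kept its call under 9 of 14, and Rgs13 and Rgs16 passed with array weights only. The count of called members was 3 to 4 with an array left out and 6 with array weights. Other counts moved as follows. Over all genes it was 805 with the replicate block, 3339 with array weights, 2271 at an adjusted p of 0.1 and 743 to 1341 with an array left out, against 1402; 57.6% of the 1402 calls were higher, 67.9% after cyclic loess and 39.4% with array weights. G protein subunits went from 1 to 2 with an intensity trend, array weights, cyclic loess, the dimmest 30% left out and an adjusted p of 0.1. Receptors went from 11 to 7 with the replicate block and to 7 to 9 with an array left out. Effectors and modulators went from 10 to 13 with array weights, to 8 with median centring and to 7 to 9 with an array left out. With an array left out 6 of them rose each time, and 1 to 3 fell. Of the effector genes that fell, Ric8a lost its call under 7 and Pde4b under 8 of the 14. Other RGS-domain genes ranged from 1 to 2 with an array left out. They went to 3 with array weights, cyclic loess and an adjusted p of 0.1. Neighbours ranged from 0 to 1 with an array left out, and 2 were called with array weights. The cause of these shifts was not tested. Same-numbered arrays of the groups correlated at 0.05, -0.09 and -0.26 in their deviations from the group means, so the numbers were not taken as pairs. Arrays of different number correlated at -0.29 to 0.31, so some deviations were shared between groups without following the numbers. With the replicate block 3 members were called, Rgs20 losing its call. The median of all genes moved between -0.05 and -0.01 over the alternatives. Without probe-level intensities, signal over background could not be assessed, which bears on the genes among the dimmest 30%: Rgs13, Grk4, Rgs21 and 12 of the 31 neighbours among them. The same limit bears on genes below the array medians, among them Rgs18 with Cre-ERT2, Cxcr5 with ERT2 and Rgs20 with both vectors.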
